A study of Mus musculus with 9 samples.

Results

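Of 18193 genes read on these arrays, 8 genes of antigen presentation are described here, with 18 of the 34945 probe sets that name a single gene. They were chosen by name: H2-Aa, H2-Ab1 and H2-Eb1, which encode chains of the mouse MHC class II molecules; Cd74, the invariant chain; H2-DMa, a chain of the peptide editor H2-DM; Ciita, the class II transactivator; B2m, the light chain of class I molecules; and Tapbp, which encodes tapasin. Gene expression was measured in 5 hepatocellular carcinomas and 4 normal livers of mice, 1 Affymetrix array per sample, and all values below are log2 expression. Tumour mice are titled triple knockout (TKO) and have the listed genotype RbΔ/Δ; p130Δ/Δ; p107+/-, so that 1 copy of p107 was intact. The tumours were dissected 4 months after adenovirus carrying Cre recombinase (Ad-Cre) was injected into the spleen. The normal livers were wild type, adult and without tumours. Genotype, virus and tumour state therefore differed together between the groups, and neither the age of the tumour-bearing mice nor the cells that took up the virus are given in the sources used here. Whether each sample of a group is another animal is not labelled, and p-values therefore refer only to the spread among these samples, which may be technical. Precision is limited by the number of arrays.

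MHC class II molecules carry peptides of material taken up from outside a cell to its surface, where CD4+ T cells read them. The alpha and beta chains are assembled around the invariant chain, which blocks the peptide groove until proteases cut it in endosomes and H2-DM frees the groove for peptides. Ciita does not bind DNA itself; it joins the factors RFX, CREB and NF-Y on the S, X and Y boxes of class II promoters. Class I molecules consist of a heavy chain and B2m and carry peptides from inside the cell, which the TAP transporter brings into the endoplasmic reticulum and tapasin helps to load. In liver, class II is known mainly from Kupffer cells, other macrophages, dendritic cells, B cells and sinusoidal endothelium, while class I is found on nearly all cells.

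Promoters of 5 of the 8 genes were examined, as given by RefSeq on GRCm38.p6. H2-Ab1 and Ciita had no entry in that promoter set, and Cd74 was left out of the search. Shown are the 250 bases before the start site of H2-Aa (chr17:34287824-34288073, minus strand), H2-Eb1 (chr17:34305617-34305866, plus strand), B2m (chr2:122147437-122147686, plus strand) and Tapbp (chr17:33919228-33919477, plus strand): a pair of class II genes that varied together, the class I light chain and the gene that rose. Each reads 5′ to 3′ along the gene, and capitals mark the motifs searched on both strands.
H2-Aa: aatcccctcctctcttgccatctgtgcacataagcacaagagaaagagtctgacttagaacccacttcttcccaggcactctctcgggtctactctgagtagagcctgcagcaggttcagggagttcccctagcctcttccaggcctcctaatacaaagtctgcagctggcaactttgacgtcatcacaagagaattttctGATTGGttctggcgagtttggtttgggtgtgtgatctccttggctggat
H2-Eb1: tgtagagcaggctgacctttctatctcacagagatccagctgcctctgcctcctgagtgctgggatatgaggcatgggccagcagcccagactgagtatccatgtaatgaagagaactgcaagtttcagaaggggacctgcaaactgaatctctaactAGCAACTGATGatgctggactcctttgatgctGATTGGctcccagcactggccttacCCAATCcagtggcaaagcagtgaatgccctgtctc
B2m: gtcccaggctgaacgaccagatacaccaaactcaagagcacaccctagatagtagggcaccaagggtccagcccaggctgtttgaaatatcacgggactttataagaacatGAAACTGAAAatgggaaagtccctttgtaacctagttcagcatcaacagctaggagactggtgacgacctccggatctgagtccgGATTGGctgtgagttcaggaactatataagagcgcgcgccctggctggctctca
Tapbp: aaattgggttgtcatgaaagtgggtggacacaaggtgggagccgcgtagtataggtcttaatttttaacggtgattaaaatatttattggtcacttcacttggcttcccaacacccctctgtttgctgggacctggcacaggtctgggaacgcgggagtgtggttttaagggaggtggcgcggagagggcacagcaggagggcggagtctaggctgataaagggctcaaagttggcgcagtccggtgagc
The Y box, searched as GATTGG, lay in H2-Aa at -49 to -44 from the start site, in H2-Eb1 at -60 to -55 with a copy on the other strand at -35 to -30, and in B2m at -54 to -49. It was found in 14.6% of all 32851 promoter windows of this length. The X box core, searched as AG, any base, AAC, any 3 bases and TG, was matched in H2-Eb1 at -92 to -82 and in 3.43% of all windows. A box departing from these letters was not marked, so the lack of a match in H2-Aa does not show that the box is absent. An interferon-stimulated element, searched as GAAA, any 2 bases and GAAA, was matched in B2m at -139 to -130 and in 2.98% of windows. The interferon-gamma activated site, searched as TTCNNNGAA and found in 7.02% of windows, was not matched in these windows, and the Tapbp window held none of the 4 motifs. Of 2 windows for H2-DMa, 1 held a Y box and the other none of the motifs. These matches are descriptions of letters and not of bound sites.

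The arrays fell into the labelled groups, since Pearson's r across genes was at least 0.958 within a group and at most 0.938 across the groups. Of 9 measured hepatocyte markers, none fell and 1 rose in the tumours, against 17.4% lower and 16.1% higher among all genes. An unadjusted limma p under 0.05 was seen for 2 of these markers, and both groups carried them at a mean of 13.11 to 13.78. Xist, the RNA of the inactive X chromosome of female cells, was low in tumour 1 (6.34), tumour 2 (6.39) and liver 4 (6.66) and ran from 12.68 to 13.55 in the remaining arrays; no source used here gives the sex of the mice. For the Actb control, 3′ signal exceeded 5′ signal by 0.61 ± 0.08 (log2, SD, n = 5) among tumours and by 0.96 ± 0.04 (SD, n = 4) among livers, a sign of RNA length. These did not overlap (two-sided exact permutation p = 0.00794, which is the lowest the design allows). For Gapdh this 3′ less 5′ signal averaged -0.21 ± 0.03 across tumours (SD, n = 5), above the -0.28 ± 0.05 of livers (SD, n = 4) (two-sided exact permutation p = 0.0635). The part of these differences in the results below was not tested.

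The question the comparison addresses is how expression in these tumours differed from normal liver. Among the 8 genes 1 rose, Tapbp, and none fell, whereas 33.5% of all genes passed an adjusted p of 0.05, 16.1% higher and 17.4% lower in tumours. The class II genes H2-Aa, H2-Ab1, H2-Eb1, H2-DMa and Cd74 did not pass, and their tumour values spread widely around the liver values. The median log2 difference of the 8 genes was 0.13, against -0.08 over all genes. Of 18 probe sets, 2 passed, both of Tapbp, against 30.6% of all probe sets. These calls depend on the scaling between arrays. Of 11 housekeeping genes 6 rose and 1 fell, with a median of 0.40. With arrays centred on these genes' own change, an alternative added after the values had been seen, the median difference of all genes was -0.53, Tapbp did not pass (0.26, adjusted p = 0.328) and B2m passed as lower (-0.63, adjusted p = 0.0054). That centring called 11565 of all 18193 genes lower and 1375 higher.

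H2-Aa, the alpha chain of the I-A molecule, was 10.14, 10.54, 12.97, 12.51 and 11.93 in tumours 1 to 5 and 11.74, 11.78, 12.17 and 11.18 in livers 1 to 4. Tumours 1 and 2 lay below every liver and tumours 3 and 4 above every liver, so the groups overlapped. The difference was -0.10 (SE 0.57, adjusted p = 0.905), with a 95% interval from -1.39 to 1.19. Its 3 other probe sets differed by 0.15, -0.08 and -0.41, none past the threshold.

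H2-Ab1, the I-A beta chain, was 9.16, 9.31, 12.13, 11.21 and 10.71 in the tumours, and 9.87, 10.39, 10.30 and 8.99 in the livers. Tumours 3, 4 and 5 exceeded every liver, and tumours 1 and 2 lay between liver 4 and the other livers. The difference was 0.61 (SE 0.61, adjusted p = 0.458), and its other probe sets gave 0.69 and 0.62 without passing. H2-Eb1, the beta chain of the I-E molecule, was 8.82, 9.75, 11.41, 11.74 and 10.92 in the tumours, and 10.57, 10.37, 11.09 and 10.09 in the livers. Both low tumours were again below all livers, and the means of 10.53 ± 1.22 (SD, n = 5) and 10.53 ± 0.43 (SD, n = 4) were equal to 2 decimals. The difference was -0.0025 (SE 0.57, adjusted p = 0.998), with a 95% interval from -1.28 to 1.27.

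Cd74, the invariant chain that escorts the class II pair, was 10.35, 10.47, 13.09, 12.32 and 12.04 in the tumours, and 10.86, 11.22, 11.11 and 10.35 in the livers. Tumours 3, 4 and 5 stood above all livers, while tumours 1 and 2 were within the range of the livers. The difference was 0.77 (SE 0.55, adjusted p = 0.303). H2-DMa, the alpha chain of the editor that exchanges the invariant chain fragment for peptide, was 6.76, 7.39, 9.03, 8.99 and 8.25 in the tumours, and 8.18, 8.68, 8.49 and 7.89 in the livers. Again tumours 1 and 2 were lowest and tumours 3 and 4 highest of all 9 arrays. It differed by -0.22 (SE 0.46, adjusted p = 0.73), and its other probe set by -0.54 (adjusted p = 0.115).

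**Figure D1:**
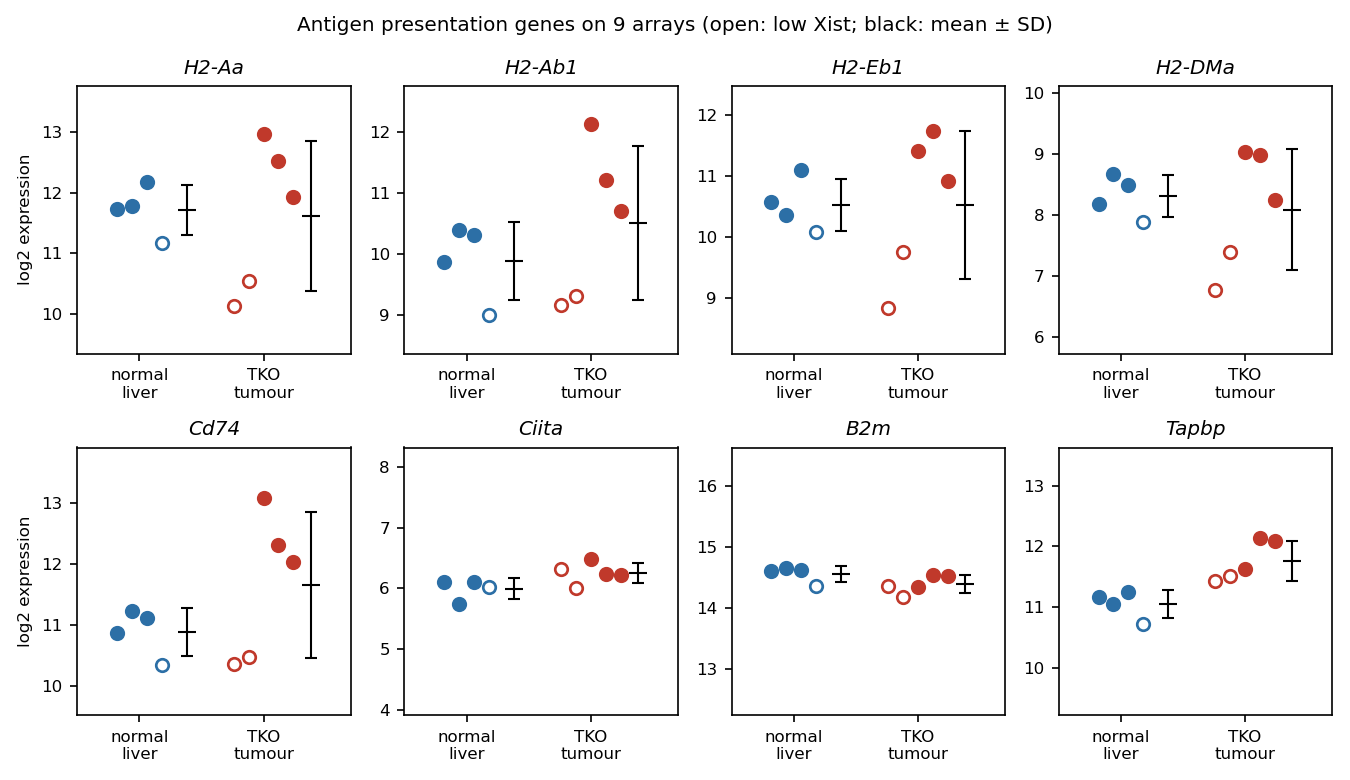
Log2 expression (vertical axis, each panel its own range) of the 8 genes in 4 normal livers and 5 TKO tumours, 1 point per array, with the mean ± SD in black; open points are the 3 arrays with low Xist. In H2-Aa, H2-Eb1 and H2-DMa the tumours run from below to above the livers, in H2-Ab1 and Cd74 from the low end of the livers to above them, whereas all 5 Tapbp values of tumours lie above the livers.

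Ciita, which switches on the class II genes, was 6.32, 6.01, 6.49, 6.23 and 6.22 in the tumours, and 6.11, 5.75, 6.11 and 6.02 in the livers. Its spread was small in both groups; tumour 2 was the lowest tumour and liver 2 the lowest liver. The difference of 0.26 (SE 0.12, adjusted p = 0.113) did not pass, and it was -0.19 with arrays centred on the housekeeping genes' own change. A dimmer probe set of Ciita pointed the other way at -0.32 (adjusted p = 0.0712), with means of 4.47 and 4.79 against 3.69 to 4.36 for TrpnX, a bacterial control without a mouse target, and the third gave 0.15 (adjusted p = 0.464), with tumours 1 and 2 (5.21 and 5.25) and liver 4 (5.14) lowest of their groups, as for the class II genes.

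B2m, the light chain shared by class I molecules, was 14.35, 14.18, 14.35, 14.54 and 14.52 in the tumours, and 14.61, 14.65, 14.63 and 14.37 in the livers. The groups overlapped through tumours 4 and 5 and liver 4, and all values lay not far below the highest deposited value of 15.5, where differences can be compressed. The difference was -0.18 (SE 0.10, adjusted p = 0.199), and the other probe set gave -0.16. With arrays centred on their 75th percentile B2m passed as lower, at -0.36 (adjusted p = 0.0193), a scaling that moved the median difference of all genes from -0.08 to -0.26.

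Tapbp, whose product tapasin holds empty class I molecules at the peptide transporter, was 11.43, 11.50, 11.63, 12.13 and 12.08 in the tumours, and 11.17, 11.05, 11.25 and 10.72 in the livers. Every tumour exceeded every liver; such separation was seen in 29.8% of all genes. Tapbp rose 1.63-fold (log2 0.71, SE 0.18, adjusted p = 0.0152; exact permutation test, two-sided p = 0.0159). Its other probe set rose 1.97-fold (log2 0.98, SE 0.15, adjusted p = 0.00124), and the call held without any single array, at 0.60 to 0.79. It was lost with arrays centred on the housekeeping genes' own change, as given above.

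**Figure D2:**
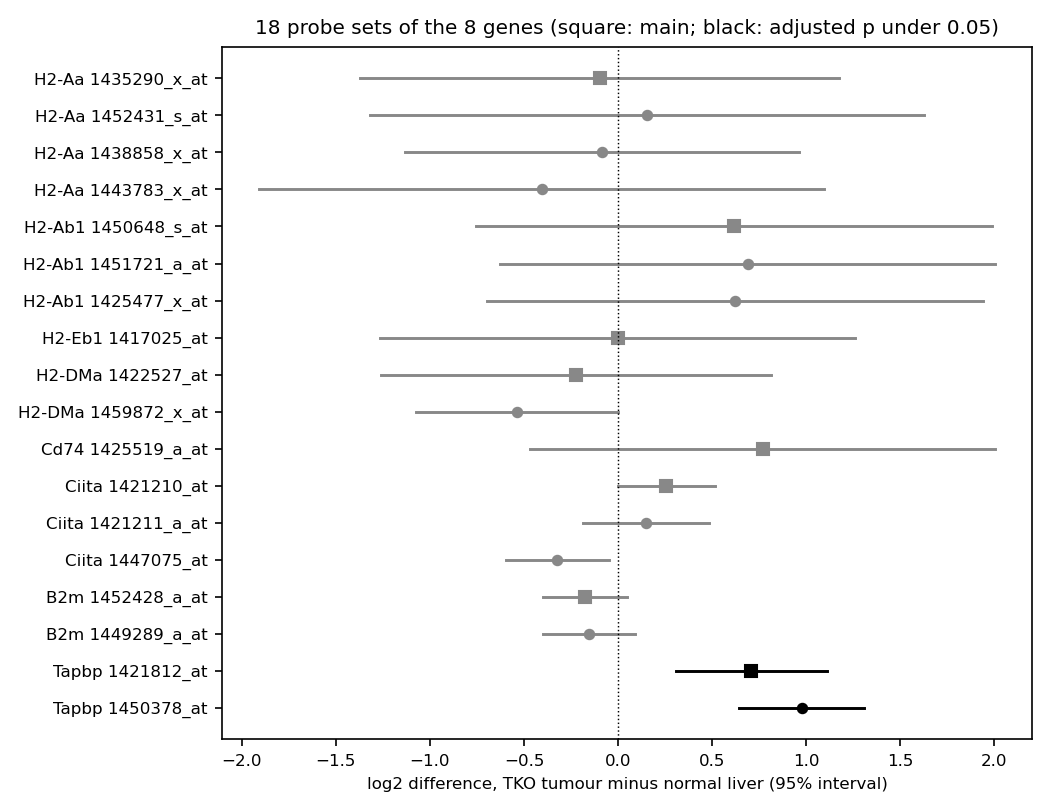
Log2 difference of TKO tumours minus normal livers (horizontal axis, with 95% interval) for all 18 probe sets, squares for the main probe set of a gene and black for an adjusted p under 0.05 in the fit of all probe sets. Both Tapbp probe sets, at 0.71 and 0.98, are the black ones, and those of H2-Aa, H2-Ab1, H2-Eb1 and Cd74 have intervals more than 2 log2 units wide.

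The class II genes spread more between tumours than most genes did. Between the lowest and the highest tumour H2-Ab1 differed 7.83-fold, H2-Eb1 7.56-fold, H2-Aa 7.14-fold, Cd74 6.66-fold and H2-DMa 4.83-fold, whereas the livers spanned 1.72-fold to 2.64-fold for these genes. The SD among tumours of these 5 genes was 1.00 to 1.27, at the 96.9th to 98.5th percentile of all genes, whose median SD was 0.190. The dimmer probe set of H2-DMa had an SD of 0.42 among tumours and 0.36 among livers. Tapbp, Ciita and B2m spanned 1.62-fold, 1.39-fold and 1.28-fold between tumours, with SDs of 0.33, 0.17 and 0.15. No test of these spreads was made.

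By their main probe sets, the 5 class II genes were also high and low on the same arrays. Each array's departure from its group's mean was compared with the mean departure of H2-Aa, H2-Ab1, H2-Eb1 and Cd74 over the 9 arrays. H2-DMa, which was not part of that mean, followed it with Pearson's r of 0.976, and Tapbp, B2m and Ciita with 0.657, 0.589 and 0.364. The dimmer probe set of H2-DMa was not compared in this way, and it had tumour 1, at 7.11, above tumours 2, 4 and 5. Outside the 8 genes the closest were Fcer1g (0.989), Tyrobp (0.988), C1qc (0.985), Cyba (0.985), Arhgdib (0.984) and C1qb (0.983). Fcer1g and Tyrobp encode signalling adaptors of myeloid and NK cells, C1qb and C1qc chains of the complement protein that macrophages secrete, and Cyba a subunit of the phagocyte oxidase. With 9 arrays and 18185 genes ranked, 160 genes had r above 0.9, and these values are descriptions without a test. Fcer1g and Tyrobp are also among the leukocyte markers below, so that list is not limited to genes of all leukocytes.

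The leukocyte markers moved with the class II genes. The mean of 10 leukocyte markers was 7.87, 8.27, 10.15, 9.94 and 9.39 in tumours 1 to 5 and 9.41, 9.45, 9.50 and 8.50 in livers 1 to 4. Tumours 1 and 2 and liver 4 were lowest, as they were for the class II mean. None of the 10 markers passed between the groups, at an adjusted or an unadjusted limma p of 0.05. In bulk RNA, fewer cells of a type and less RNA per cell cannot be told apart. The markers of single cell types were not alike, and the counts below stand beside 17.4% of all genes lower and 16.1% higher. Of 14 macrophage and Kupffer cell markers 6 fell and none rose, with a mean level of 7.33 to 9.29 in tumours and 9.19 to 10.16 in livers. Timd4, a receptor for dying cells on resident Kupffer cells, fell by 2.90 (SE 0.19, adjusted p = 6.4e-06), the Kupffer cell lectin Clec4f fell by 3.51 (SE 0.57) and the haemoglobin scavenger receptor Cd163 fell by 3.49 (SE 0.58), with tumour values of Timd4 and Cd163, at 4.43 to 5.02 and 4.37 to 5.66, close to the TrpnX control. The complement genes C1qb and C1qc differed by 0.35 and 0.23 without passing, but passed at 0.88 and 0.75 without the 3 low-Xist arrays. Other probe sets of C1qb gave -0.17 and -0.02 over all arrays, and with arrays centred on the housekeeping genes' own change C1qb and C1qc were -0.11 and -0.22. Of 9 dendritic cell markers 1 fell (11.1%) and of 10 B cell markers 4 fell (40%). Of 13 T and NK cell markers 1 fell (7.7%), and no marker of these lists was higher. Mean levels of the dendritic, B, and T and NK cell markers were 5.92 to 6.48, 5.84 to 6.82 and 5.74 to 6.30 in tumours and 5.97 to 6.24, 6.44 to 6.93 and 5.80 to 6.20 in livers, above the TrpnX control in every array. Of 9 endothelial markers 5 fell, among them the sinusoidal lectin Clec4g, which fell by 4.08 (SE 0.62), and the VEGF receptor Kdr, which fell by 1.15 (SE 0.12), with mean levels of 7.04 to 8.56 in tumours and 8.85 to 9.46 in livers. A second, dimmer probe set of Clec4g gave -0.26 and did not pass. Of 7 stellate cell markers 5 fell (mean levels 8.08 to 9.44 and 9.84 to 10.26). None of the 7 neutrophil markers passed, at an adjusted or an unadjusted p of 0.05 (mean levels 6.19 to 8.06 and 6.75 to 8.73), and the part of these cells in the class II levels was not tested.

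**Figure D3:**
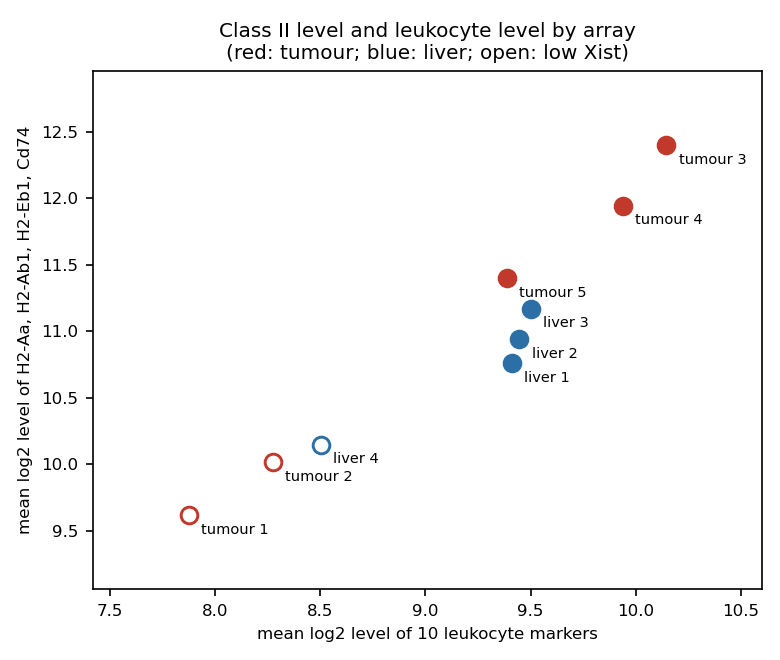
Mean log2 level of H2-Aa, H2-Ab1, H2-Eb1 and Cd74 (vertical axis) against the mean log2 level of 10 leukocyte markers (horizontal axis), 1 point per array. Tumours are red, livers blue and low Xist open. Tumours 1 and 2 are at the lower left and tumours 3 and 4 at the upper right, and tumour 5 is higher in class II than liver 3 at a slightly lower leukocyte level.

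With the leukocyte level in the model, an alternative added after the values had been seen, some class II genes passed. Cd74 was higher in tumours by 0.87 (SE 0.15, adjusted p = 0.00332) and H2-Ab1 by 0.73 (SE 0.16, adjusted p = 0.01), while H2-Aa differed by 0.0078 (SE 0.13, adjusted p = 0.965), H2-Eb1 by 0.10 (SE 0.20, adjusted p = 0.723) and H2-DMa by -0.14 (SE 0.13, adjusted p = 0.436). In this model, fitted to main probe sets only, 3 of the 8 genes passed, with Tapbp at 0.73, near the 33.8% of all genes. Without the leukocyte level Cd74 and H2-Ab1 had differed by 0.77 (SE 0.55) and 0.61 (SE 0.61), so mainly the SE changed. Unequal differences could also be read within each array. The log2 difference of Cd74 from H2-Aa, a pair chosen after its values were seen, was 0.22, -0.07, 0.12, -0.19 and 0.11 in the tumours, and -0.87, -0.56, -1.06 and -0.83 in the livers. All tumours lay above all livers, by 0.87 on average. Such separation was seen in 29.8% of all single genes, and its share among gene pairs was not computed. H2-Ab1 less H2-Aa was -0.97, -1.24, -0.84, -1.31 and -1.23 in the tumours, and -1.87, -1.39, -1.87 and -2.19 in the livers, also without overlap, whereas H2-Eb1 less H2-Aa, at -1.56 to -0.77 and -1.42 to -1.08, overlapped. Set against another H2-Aa probe set, both genes gave overlapping groups. Tumours were at 0.41 to 1.57 and livers at -0.09 to 0.66 for Cd74. For H2-Ab1 tumours were at -0.56 to 0.24 and livers at -0.93 to -0.42. The remaining H2-Aa probe sets were not compared in this way, so the overlap is shown for that probe set alone. The probe sets of H2-Aa (x_at) and H2-Ab1 (s_at) are of kinds that may also bind related genes, so the levels of these chains are less certain than that of H2-Eb1.

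The 3 arrays with low Xist were the ones with the lowest class II levels of their group. In livers, liver 4 was the lowest of the 4 for H2-Aa, H2-Ab1, H2-Eb1, H2-DMa and Cd74, and in tumours, tumours 1 and 2 were the lowest of the 5. The dimmer probe set of H2-DMa had tumours 2 and 5 lowest instead. With low against high Xist as a term beside the tumour and liver groups, a split made after the Xist values had been seen, H2-Ab1 differed by -1.76 (low minus high, SE 0.32, adjusted p = 0.106), Cd74 differed by -1.55 (adjusted p = 0.136) and H2-Aa by -1.59 (adjusted p = 0.144). None of the 8 genes passed in that limma model, against 0.132% of all genes, while 7 of the 8 had an unadjusted p under 0.05, against 8.95% of all genes. The leukocyte level ran with Xist in the same arrays, so with 3 low arrays the 2 measures cannot be told apart. Without these 3 arrays, a choice made after the values had been seen, Cd74 passed as higher in tumours, at 1.42 (SE 0.27, adjusted p = 0.0114), as did Tapbp at 0.79 (adjusted p = 0.0127), against 27.9% of all genes, whereas H2-Ab1 at 1.16 (adjusted p = 0.0564), H2-Eb1 at 0.68 and H2-Aa at 0.58 did not.

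Other genes of the class II pathway moved both ways. Of 15 measured, 3 rose and 4 fell, which is 46.7% against 33.5% of all genes, with a median of -0.20. Ifi30, the lysosomal thiol reductase that unfolds antigens, rose by 0.89 (SE 0.16, adjusted p = 0.00266), from 9.90 to 10.47 in livers to 10.69 to 11.27 in tumours, without overlap. The endosomal protease Lgmn rose by 1.03 (SE 0.35, adjusted p = 0.0471), a call lost without any array but tumour 2 (0.84 to 1.11 where lost). Another protease gene, Ctsb, rose by 0.38 (SE 0.12, adjusted p = 0.0358), a call lost without tumour 3, 4 or 5 or any liver (0.32 to 0.41). Of its other probe sets 1 rose by 0.47 and the others, at -0.03, 0.10 and 0.23, did not pass. Lgmn and Ctsb did not pass with arrays centred on their 75th percentile (0.85 and 0.20). Ctss, the protease that trims the invariant chain in antigen-presenting cells, was 9.38, 10.83, 11.84, 11.49 and 11.40 in the tumours, and 11.29, 11.17, 11.50 and 10.25 in the livers, and its difference of -0.06 (SE 0.48) did not pass. Ctsl, a related protease, fell by 0.54 (SE 0.13, adjusted p = 0.0109), and a dimmer probe set gave -0.33 without passing. H2-DMb2, a beta chain of the editor H2-DM, fell by 0.53 (SE 0.15, adjusted p = 0.0224), a call lost without liver 1 (-0.52) or liver 2 (-0.44), and 2 other probe sets did not pass at -0.15 and -0.13. H2-Ea, the I-E alpha chain, which is not made in some mouse strains, fell by 0.48 (SE 0.12, adjusted p = 0.0138). Its dimmer probe sets gave -0.0053 and -0.01, the latter with means of 3.93 and 3.94, within the TrpnX range. The main probe set of H2-Ea did not follow the class II mean (Pearson's r of -0.25). The ubiquitin ligase genes Marchf8 and Marchf1, whose products remove class II and other molecules from the surface, gave a fall of 0.68 (SE 0.10, adjusted p = 0.00119) and a difference of -0.20 (adjusted p = 0.568), though 1 of the other probe sets of Marchf1 passed at -0.22. H2-Oa and H2-Ob, the chains of the H2-DM inhibitor, differed by -0.24 and -0.38, and the class II beta chain gene H2-Eb2 by -0.07, none past the threshold. For H2-Ob the tumour mean was no higher than TrpnX values, which leaves the size of that difference unmeasured. With arrays centred on the housekeeping genes' own change 1 of the 15 rose, Ifi30 (0.44), and 9 fell, while Lgmn (0.58) and Ctsb (-0.07) did not pass. The same centring called 11565 of all 18193 genes lower and 1375 higher.

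The list of class II promoter factors and co-activators, which also held Nlrc5, included more genes that rose than fell. Of 11, 5 rose and none fell, with a median of 0.25, against 16.1% higher and 17.4% lower among all genes. Nfya, the NF-Y subunit that reads the Y box, rose by 1.56 (SE 0.13, adjusted p = 3.61e-05), with tumours at 8.73 to 9.39 and livers at 7.32 to 7.54. A second probe set rose by 0.98 and the dimmest gave 0.03. The RFX subunit gene Rfxap rose by 0.57 (SE 0.14, adjusted p = 0.0112), while Rfx5 and Rfxank, its partners, differed by -0.23 and -0.02 without passing. The co-activator genes Crebbp and Ep300 rose by 0.81 (SE 0.10, with 1 other probe set not past the threshold at 0.29) and 0.59 (SE 0.17), and Nfyc by 0.36 (SE 0.12, adjusted p = 0.044). The call of Nfyc was lost without tumours 1, 2 or 5 or livers 1, 2 or 3 (0.30 to 0.36), and that of Ep300 without tumours 3 or 5 or livers 1, 3 or 4 (0.52 to 0.59). Neither passed with arrays centred on their 75th percentile (0.18 and 0.41), and Nfyc did not pass without the 3 low-Xist arrays (0.35). With arrays centred on the housekeeping genes' own change Nfya (1.11) and Crebbp (0.36) passed as higher, Rfxap (0.12), Ep300 (0.14) and Nfyc (-0.09) did not pass, and Rfx5 (-0.68) and Rfxank (-0.48) passed as lower. Of all 18193 genes, 1375 passed as higher and 11565 as lower in that setting. Nlrc5, the relative of Ciita that acts on class I promoters, was 7.84, 6.89, 7.86, 8.45 and 8.63 in the tumours, and 8.38, 8.81, 8.39 and 7.50 in the livers, a difference of -0.33 (SE 0.37, adjusted p = 0.508).

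**Figure D4:**
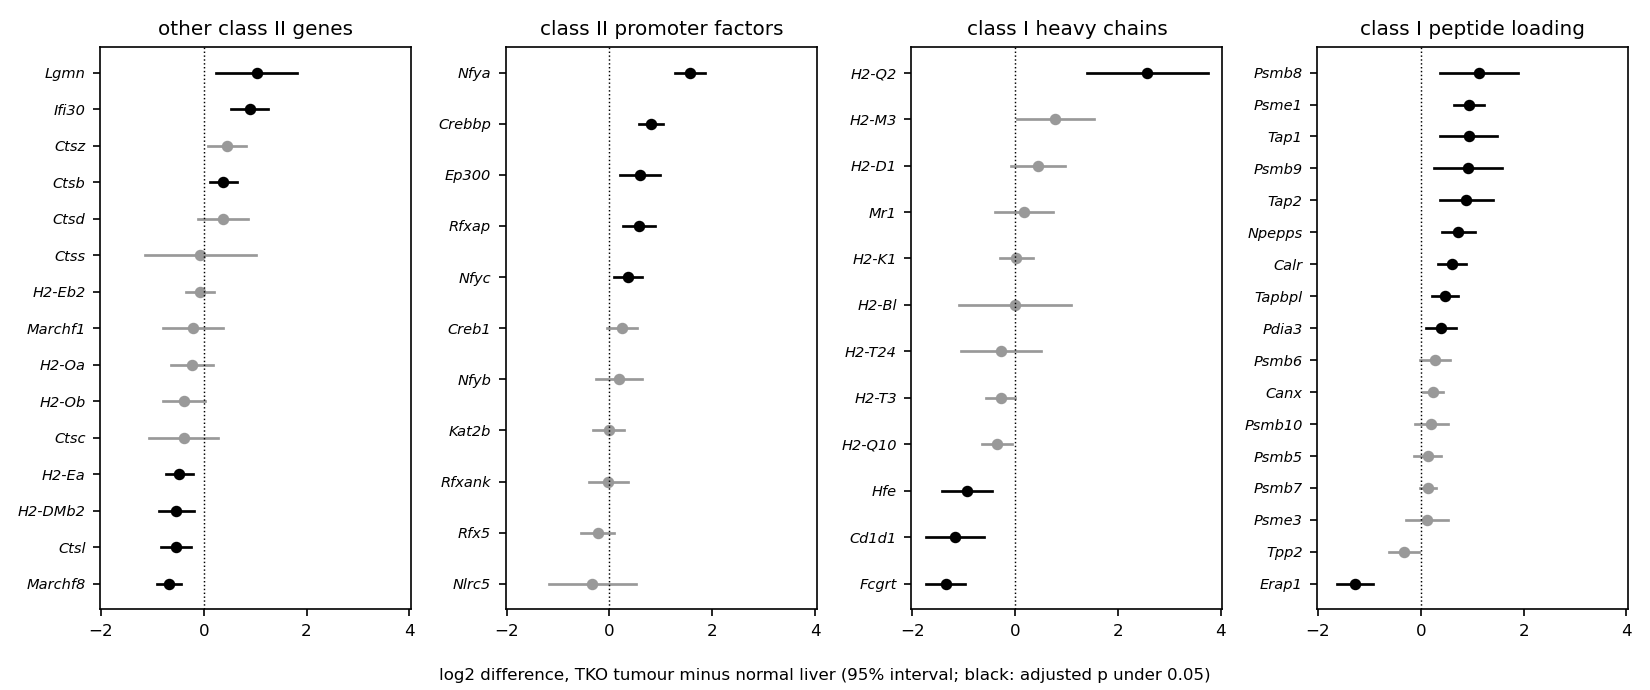
Log2 difference of TKO tumours minus normal livers (horizontal axis, with 95% interval) for the measured genes of 4 lists. These are other class II genes, class II promoter factors (with co-activators and Nlrc5), class I heavy chains and class I peptide supply and loading. Black marks an adjusted p under 0.05. In the last panel 9 of 17 genes are black to the right of 0 and Erap1, at -1.28, is black to the left.

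Tapbp rose together with other genes of class I peptide supply and loading. Of 17 measured genes besides B2m and Tapbp, 9 rose and 1 fell, with a median of 0.39, against 16.1% higher among all genes. With arrays centred on the housekeeping genes' own change 1 of the 17 passed as higher, Psme1 (0.49), while Tap1 (0.48), Tap2 (0.44), Tapbpl (0.02), Calr (0.16), Psmb8 (0.68), Psmb9 (0.47), Npepps (0.28) and Pdia3 (-0.06) did not. Of all 18193 genes, 1375 passed as higher in that setting. Tap1 and Tap2, the peptide transporter, rose by 0.93 (SE 0.25, adjusted p = 0.0193) and 0.89 (SE 0.23, adjusted p = 0.0172); tumour 2, at 8.04 and 7.89, was within the range of the livers for both. The call of Tap1 was lost without liver 4 (0.84) and that of Tap2 without liver 1 (0.83). Tapbpl, a relative of tapasin that edits peptides, rose by 0.47 (SE 0.12, with a dimmer probe set not past the threshold at 0.26) and Calr, a chaperone of the loading complex, by 0.61 (SE 0.12, adjusted p = 0.00431). Pdia3, the oxidoreductase bound to tapasin, rose by 0.39 (SE 0.13, adjusted p = 0.0431), which was lost without tumours 1, 2 or 3 or livers 1, 3 or 4 (0.32 to 0.41) and was 0.20 without the 3 low-Xist arrays. Its other probe set gave -0.18. With arrays centred on their 75th percentile, Tapbpl (0.29) and Pdia3 (0.21) did not pass.

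Psmb8 and Psmb9, catalytic subunits of the immunoproteasome, rose by 1.13 (SE 0.34, adjusted p = 0.0302) and 0.92 (SE 0.30, adjusted p = 0.0401). Their tumour values ran from 10.14 and 9.11 in tumour 2 to 11.93 and 10.66 in tumour 4, against 9.90 to 10.45 and 8.84 to 9.54 in livers. The call of Psmb8 was lost without any array but tumour 2 and liver 2 (0.99 to 1.20), and that of Psmb9 without any but tumour 2 and liver 3 (0.77 to 0.96). Psmb9 did not pass with arrays centred on their 75th percentile (0.74), nor did a dimmer probe set of Psmb8 (0.51). The third such subunit, Psmb10, differed by 0.20, and the standard subunits Psmb5, Psmb6 and Psmb7 by 0.13, 0.28 and 0.13, none past the threshold. Psme1, of the proteasome activator, rose by 0.94 (SE 0.13, adjusted p = 0.000843), from 11.30 to 11.60 in livers to 12.07 to 12.67 in tumours. Npepps, a cytosolic aminopeptidase, rose by 0.73 (SE 0.14), though its dimmest probe set gave -0.10, and Erap1, which trims peptides in the endoplasmic reticulum, fell by 1.28 (SE 0.16, adjusted p = 0.000421), from 9.77 to 10.03 in livers to 8.19 to 9.06 in tumours.

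Of 12 measured class I heavy chain and class I-like genes, 1 rose and 3 fell, with a median of -0.14; the 33.3% that passed were close to the 33.5% of all genes. The classical heavy chain H2-K1 was 13.94, 13.56, 13.60, 14.17 and 13.94 in the tumours, and 13.98, 13.86, 13.84 and 13.58 in the livers, a difference of 0.03 (SE 0.14). H2-D1 differed by 0.45 (SE 0.23, adjusted p = 0.16), though 1 of its other probe sets rose by 1.57 (adjusted p = 0.00377); heavy chain genes are close copies of each other, so these values are uncertain. H2-Q2, a class Ib gene, rose by 2.57 (SE 0.53, adjusted p = 0.00562), with tumours from 4.98 (tumour 2) to 7.98 (tumour 5) and livers at 3.60, 3.82, 4.43 and 4.13. All tumours were above all livers, whose values lay about the TrpnX control, so the full size of this difference was not measurable. H2-Q10, a class I gene secreted by hepatocytes, differed by -0.36 (adjusted p = 0.0622) and H2-M3, which presents formylated peptides, by 0.78 (adjusted p = 0.0952). The genes that fell encode class I-like proteins with other tasks: Fcgrt, the IgG and albumin receptor, fell by 1.35 (SE 0.17, adjusted p = 0.000439), Cd1d1, which presents lipids, fell by 1.18 (SE 0.25, adjusted p = 0.00682), and Hfe, which controls iron uptake, fell by 0.94 (SE 0.22, adjusted p = 0.01).

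Interferon gamma, which is known to induce both pathways, was represented by genes of its signalling and response. Of 17 measured, 1 rose and 1 fell, which is 11.8% against 33.5% of all genes, and the median was -0.16. The receptor gene Ifngr1 rose by 1.28 (SE 0.27, adjusted p = 0.0061), without overlap between 9.61 to 10.85 in tumours and 8.37 to 9.18 in livers. Cxcl9, a T cell attractant induced by interferon gamma, fell by 1.84 (SE 0.55, adjusted p = 0.0293); without tumour 1 or 5 or liver 1, 2 or 3 the call was lost (-1.96 to -1.42), as it was without the 3 low-Xist arrays (-1.68). Among 10 genes for co-stimulatory and inhibitory ligands, 1 rose and 3 fell, which is 40% against 33.5% of all genes. Icosl, the ligand of the T cell receptor ICOS, rose by 1.15 (SE 0.34, adjusted p = 0.0275), a call lost without tumour 5 or livers 1, 3 or 4 (1.05 to 1.14) and with arrays centred on the housekeeping genes' own change (0.70), and its other probe set gave -0.14. Cd274, which encodes the inhibitory ligand PD-L1, fell by 0.59 (SE 0.17, adjusted p = 0.0278), which was lost without tumour 1 or 5 or livers 1, 2 or 3 (-0.60 to -0.52) and without the 3 low-Xist arrays (-0.49). Tnfsf4, the OX40 ligand gene, fell by 0.26 (SE 0.07, adjusted p = 0.021), a call lost without liver 1 or 2 (-0.25 and -0.24) or without the 3 low-Xist arrays (-0.26). Pdcd1lg2, which encodes PD-L2, fell by 0.29 (SE 0.10, adjusted p = 0.0451), a call lost without any array but tumour 4 and liver 3 (-0.31 to -0.22), without the 3 low-Xist arrays (-0.31) and with Xist or the leukocyte level as a covariate (both -0.29).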

How the data were processed

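Affymetrix Mouse Genome 430 2.0 arrays were hybridised with RNA of 5 TKO hepatocellular carcinomas and 4 normal livers. Trizol was used for extraction and a RiboAmp kit for 2 rounds of amplification, per the labels' protocols. The deposited values are log2 expression per probe set, made by the authors with RMA per the submitters' processing notes; no version is given in the sources used here. RMA normalises between arrays, so a shift shared by most genes would be removed.

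Of 45101 probe sets, 64 controls were left out, 34945 had 1 gene symbol in GEO's platform annotation, 932 several and 9160 none. Symbols were looked up in RefSeq, which held 34741 of the probe sets' genes. Each of 18193 genes was represented by its probe set with the highest mean over the 9 arrays. Groups were compared with limma 3.58.1 in R 4.3.3 (lmFit and eBayes, no covariates), with Benjamini-Hochberg adjustment over all genes, or over all probe sets for values of a second probe set; an adjusted p under 0.05 was called, and the adjusted p-values above come from this limma fit unless another test is named. Single values were also compared by exact permutation over 126 splits. The fit was tested on simulated data. Array medians were 6.22 to 6.27, and the closest pair of arrays differed by a root mean square of 0.311, so no array was a copy.

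The 8 genes and the gene and marker lists were chosen with earlier results of these data known. Genes named were the 8 themselves, genes of the class I and class II lists, from each other list up to 4 (3 by lowest adjusted p among those moving as most of its called genes did, and 1 moving the other way; the text leaves some of these unnamed), and the 6 genes outside the 8 closest to the class II mean. Alternatives were a filter on dim genes, the mean of all probe sets, no x_at or s_at probe sets, centring on the median level of 11 housekeeping genes or on the 75th percentile, eBayes with trend and robust settings, the Xist level as a covariate, a replicate block and each array left out. The fits without the low-Xist arrays and with the leukocyte level, and centring on the median of the housekeeping genes' deviations from their own means, were added after the values had been seen.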

Additional observations from a re-analysis of the deposited data

Results flagged for a closer look

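In 15 of 184 groups of 4 or 5 arrays examined, the lowest or highest array stood apart from the others by more than Dixon's 95% critical value. Chance alone does this in about 1 in 20 groups. Liver 4, an array with low Xist, was the lowest liver for B2m (14.37), H2-Ob (3.92), Ctsb (13.04), Tyrobp (9.45), C1qc (9.29) and C1qb (9.92), and the highest for Npepps (8.77). Liver 3 was the lowest liver for Fcgrt (11.18) and Tnfsf4 (6.004), and liver 2 the highest for Pdia3 (13.12) and Erap1 (10.03). Among tumours, tumour 2, also low in Xist, was the lowest for Tap2 (7.89) and Tapbpl (8.92), tumour 4 was the lowest for Tnfsf4 (5.80), for which 3 of the other tumours had equal values, and tumour 5 was the highest for Cd163 (5.66). The causes were not tested.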

How the results depend on the processing

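Tapbp was higher in tumours under every alternative run, at 0.26 to 1.10, but did not pass with arrays centred on the housekeeping genes' own change (0.26, adjusted p = 0.328) or with a replicate block (0.63, adjusted p = 0.106); the numbers do not pair the samples, since deviations of same-numbered arrays correlated at -0.13 to 0.18 and above 0.1 in 1 of 4 pairs, and the block makes no use of tumour 5. With the replicate block the genes called higher were 0 of the 8, 4 for class I loading and 1 for other class II genes, and lower 2 for other class II genes and 1531 of all genes. Centring on the median level over the housekeeping list, as planned, followed the gene of middle level, which was Sdha in 4 arrays and Pgk1 in 3, and this centre was 0.39 lower in tumours (log2 -0.39) although 6 of the 11 genes rose; each gene set against its own mean gave a centre 0.45 higher in tumours. Centring on that change gave 0 of the 8 higher and 1 lower, 1 class I loading gene higher, 1 other class II gene higher and 9 lower, 5 heavy chain genes lower, and 1375 genes higher and 11565 lower in all, with 10.6% of calls higher and a median of -0.53. Centring on the median level gave 2 of the 8 higher, 5 other class II genes higher and 0 lower, 1 heavy chain gene lower and 610 genes lower in all, with 87.3% of all calls higher against 48.0% and a median of 0.31; centring on the 75th percentile gave 1 of the 8 lower, 1 other class II gene higher, 5 heavy chain genes lower and 8040 genes lower in all, with 22.3% of calls higher. Of the 8 genes 2 were higher with Xist as a covariate, 2 without the low-Xist arrays and 3 with the leukocyte level. Leaving out each array in turn left 1 to 1 of the 8 higher and 0 to 0 lower, 5 to 9 class I loading genes higher, 1 to 4 other class II genes higher and 3 to 6 lower, 3 to 4 heavy chain genes lower, 5 to 7 macrophage markers lower, and 2348 to 3251 genes higher and 2284 to 3110 lower in all.

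Some differences changed sign, and the cause was not tested. With the housekeeping genes' own change these were Ciita -0.19, Ctsb -0.068, Nfyb -0.27, Nfyc -0.087, H2-K1 -0.43, H2-D1 -0.00076, Pdia3 -0.062, Psmb10 -0.25, Psmb5 -0.32, Psmb6 -0.18, Psmb7 -0.32, C1qc -0.22, C1qb -0.11, Ahsg -0.052 and Cyba -0.14. On centring by the median housekeeping level they were H2-Aa 0.29, H2-Eb1 0.38, H2-DMa 0.16, B2m 0.21, H2-Oa 0.15, H2-Ob 0.0075, H2-Eb2 0.32, Ctss 0.32, Marchf1 0.19, Rfx5 0.16, Rfxank 0.36, Nlrc5 0.054, H2-Q10 0.030, Fcer1g 0.38, Tyrobp 0.25, Arhgdib 0.18, Tnfsf4 0.12 and Pdcd1lg2 0.10, and on 75th percentile centring H2-K1 -0.16, Psmb5 -0.046 and Psmb7 -0.049. With Xist as a covariate they were H2-Aa 0.073, H2-Eb1 0.16, Ctss 0.074, Fcer1g 0.12 and Tyrobp 0.029; without the low-Xist arrays H2-Aa 0.58, H2-Eb1 0.68, H2-DMa 0.31, Ctss 0.26, Marchf1 0.086, Fcer1g 0.42, Tyrobp 0.37 and Arhgdib 0.11; and with the leukocyte level H2-Aa 0.0078, H2-Eb1 0.10, Ctss 0.018 and Fcer1g 0.071. Other probe sets gave 0.15 for H2-Aa and -0.32 for Ciita. Leaving out 1 array gave ranges of -0.44 to 0.27 for H2-Aa, -0.31 to 0.42 for H2-Eb1, -0.46 to 0.11 for H2-DMa, -0.14 to 0.0045 for H2-Eb2, -0.33 to 0.34 for Ctss, -0.13 to 0.087 for Rfxank, -0.056 to 0.10 for H2-K1, -0.22 to 0.28 for Fcer1g, -0.45 to 0.22 for Tyrobp, -0.040 to 0.54 for C1qc and -0.015 to 0.57 for Cyba. Of 72 named genes, 31 had another probe set above the TrpnX control, and 19 of these had one that differed in sign or call.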

Other observations

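By their main probe sets, Cd74 and H2-Ab1 stood higher in tumours relative to the leukocyte level of the same array, while the groups overlapped for H2-Aa and H2-Eb1. The mean of H2-Aa, H2-Ab1, H2-Eb1 and Cd74 less the mean of the 10 leukocyte markers was chosen after the values were seen and is given without a test. It was 1.74, 1.74, 2.25, 2.01 and 2.01 in tumours 1 to 5 and 1.35, 1.49, 1.67 and 1.65 in livers 1 to 4. All tumours lay above all livers, by 0.41 on average. Single genes separated the groups in 29.8% of all genes, and the share among differences from the leukocyte mean was not computed. Taken singly, Cd74 less the leukocyte mean reached at most 1.84 in livers and at least 2.2 in tumours, and H2-Ab1 ran over 1.03 to 1.98 and 0.46 to 0.94, without overlap, whereas H2-Aa, at 2.26 to 2.83 and 2.33 to 2.68, and H2-Eb1, at 0.95 to 1.80 and 0.92 to 1.59, overlapped. On the dimmest H2-Ab1 probe set the groups overlapped as well. There liver 2 read 9.25 at a leukocyte mean of 9.45, and tumour 5 read 8.82 at 9.39.

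Among markers of other lineages, the B cell kinase gene Blk fell by 0.50 (SE 0.10, adjusted p = 0.00426) and the sinusoidal scavenger receptor gene Stab2 fell by 1.60 (SE 0.24), while the hepatocyte secretory gene Ahsg rose by 0.40 (SE 0.09), though it was -0.05 with arrays centred on the housekeeping genes' own change. Of 4 bile duct markers, Sox9 rose and Krt7 fell, which is 50% against 33.5% of all genes. Gzma, a protease gene of cytotoxic cells, fell by 0.49 (SE 0.15), a call lost without tumour 1 or 5 or liver 2 or 3 (-0.48 to -0.37).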
